A study of Homo sapiens with 16 samples.

Results

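The transforming growth factor-beta (TGF-beta) pathway was described through 9 genes, looked up by symbol among the 18332 genes of the expression table. They were the ligands TGFB1 and TGFB2, the receptors TGFBR1 and TGFBR2, the signal transducers SMAD2 and SMAD3, the inhibitors SMAD7 and SKIL, and TGFBI, a TGF-beta-induced matrix gene. They were listed as members of the pathway, with no threshold on their values, and all 9 passed the filter on low values in every comparison. The choice was made with earlier results of these data known. RNA was sequenced from a pair of estrogen receptor-negative human breast cancer lines, MDA-MB-468 and MDA-MB-231, after 48 hours in medium without serum holding glucose at 5 mM (low glucose, the control) or 25 mM (high glucose). There were 4 replicates in each of the 4 groups, and in both lines the cells had first been conditioned in low glucose. The comparison asked how a glucose level that models hyperglycemia changed the transcripts. The groups used here held no osmolarity control, so that added glucose and added osmolarity cannot be told apart. MDA-MB-231 was maintained in DMEM and MDA-MB-468 in RPMI, so that line and culture history cannot be told apart either.

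TGF-beta ligands are secreted in a latent form, held by latency proteins and released by integrins, proteases and thrombospondin. Active ligand binds the type II receptor TGFBR2, which phosphorylates the type I receptor TGFBR1, and TGFBR1 phosphorylates SMAD2 and SMAD3, which enter the nucleus with SMAD4 to regulate target genes. SMAD7 blocks the receptor and SKIL (SnoN) blocks the SMAD complex, and both are themselves TGF-beta target genes. In breast epithelium the pathway restrains growth, whereas in advanced breast cancer it is known for promoting epithelial-mesenchymal transition and invasion.

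Reads recovered for the genes of the expression table came to between 14094597 and 24425916 per library. Values are given as normalized reads, that is, reads scaled by the size factor of the library, and a fold change is the difference of group means of log2(value + 1). Marker genes set the lines apart, MDA-MB-231 being mesenchymal and MDA-MB-468 epithelial. MDA-MB-231 in low glucose had 96228 ± 2742 (SD, n = 4) normalized reads of VIM (vimentin, mesenchymal) and 5.51 ± 1.12 of CDH1 (E-cadherin, epithelial). MDA-MB-468 had 21.5 ± 5.48 of VIM and 2007 ± 54.2 of CDH1. ESR1, the estrogen receptor gene, was at 57.9 ± 7.87 in MDA-MB-468 and 1.31 ± 1.01 in MDA-MB-231, both in low glucose. Of the markers of other cell types, DCN (fibroblasts) averaged 0.25 reads or fewer in each group and PTPRC (leukocytes) 12.75 or fewer, whereas CD68, LUM and PDGFRB were well above them in MDA-MB-231, with means of 2279 ± 118, 63.4 ± 12.5 and 206 ± 6.29 in low glucose. With glucose PDGFRB rose in MDA-MB-231, to 251 ± 10.5 with no overlap (log2 fold change 0.29, SE 0.0689, adjusted p = 0.0089, limma), whereas CD68 (2146 ± 67.4) and LUM (67.6 ± 11.7) were not called. The part of these genes in the MDA-MB-231 results was not tested.

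The promoter sequences of TGFB1, TGFB2, SKIL and TGFBI are shown because these 4 genes changed in MDA-MB-468 and each has 1 promoter window in RefSeq (GRCh38.p14). Each run holds the 250 bases before the transcription start, read 5′ to 3′ on the strand of the gene, and capitals mark the motif letters that were searched. The windows lie at chr19:41353923-41354172 (TGFB1, minus strand), chr1:218345086-218345335 (TGFB2, plus strand), chr3:170357465-170357714 (SKIL, plus strand) and chr5:136028738-136028987 (TGFBI, plus strand).
TGFB1: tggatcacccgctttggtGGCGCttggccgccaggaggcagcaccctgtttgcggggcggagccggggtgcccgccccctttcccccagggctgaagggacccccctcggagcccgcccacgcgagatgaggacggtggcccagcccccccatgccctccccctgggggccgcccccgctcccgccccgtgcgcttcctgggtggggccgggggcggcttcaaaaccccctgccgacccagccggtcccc
TGFB2: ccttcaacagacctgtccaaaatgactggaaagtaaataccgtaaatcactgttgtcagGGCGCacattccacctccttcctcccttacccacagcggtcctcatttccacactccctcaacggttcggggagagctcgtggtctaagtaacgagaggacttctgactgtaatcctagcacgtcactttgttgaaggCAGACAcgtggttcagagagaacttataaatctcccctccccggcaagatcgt
SKIL: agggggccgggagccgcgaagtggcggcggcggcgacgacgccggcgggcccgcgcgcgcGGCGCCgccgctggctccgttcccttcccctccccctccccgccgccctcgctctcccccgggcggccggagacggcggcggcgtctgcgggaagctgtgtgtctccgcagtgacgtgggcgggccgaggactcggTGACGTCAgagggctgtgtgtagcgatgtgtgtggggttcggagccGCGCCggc
TGFBI: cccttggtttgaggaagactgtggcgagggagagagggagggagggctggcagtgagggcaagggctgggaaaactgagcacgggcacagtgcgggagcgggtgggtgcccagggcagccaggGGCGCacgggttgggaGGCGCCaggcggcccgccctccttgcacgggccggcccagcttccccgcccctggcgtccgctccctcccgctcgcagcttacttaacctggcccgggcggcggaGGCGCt

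The letters searched on both strands were the SMAD palindrome GTCTAGAC, the SMAD element CAGACA, the GC-rich SMAD element GGCGC, the AP-1 site TGANTCA and the cyclic AMP response element TGACGTCA. GGCGC or its reverse complement was found in all 4 windows. It was in 11 of the 24 windows of the 9 genes, and 44.5% of the 35116 RefSeq promoter windows of this length hold it. Of the 24 windows 8 belong to TGFBR1 and 5 to SMAD3. Some windows of a gene overlap, so that 1 GGCGC of TGFBR1 was counted in more than 1 window. CAGACA was found in TGFB2, beginning 53 bases before the start. It was in 4 of the 24 windows, and 13.6% of all windows hold it. TGACGTCA was found in SKIL, beginning 54 bases before the start. It was in 1 of the 24 windows, and 1.65% of all windows hold it. TGANTCA (6.57% of all windows) was in none of the 4 and in 1 of the 24, a SMAD3 window. GTCTAGAC (0.182% of all windows) was in none of the 24. The TGFB2 window was 50.4% G or C, against 72.8% for TGFBI, 76.8% for TGFB1 and 78.4% for SKIL. A match is a run of letters and was not tested as a binding site.

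To compare genes with each other, levels were taken per transcript length, as RPKM, which scales reads by the canonical transcript in kilobases and by the reads of the library. In low-glucose MDA-MB-231, TGFB1 led at 88.0 ± 2.34 (SD, n = 4), followed by TGFBR2 at 78.4 ± 1.37. TGFBI (25.3 ± 0.456) and TGFBR1 (23.4 ± 1.45) came next and overlapped each other. SMAD3 followed at 18.2 ± 0.594, then TGFB2 at 12.7 ± 0.628 and SKIL at 6.02 ± 0.252. SMAD7 (3.90 ± 0.361) and SMAD2 (2.35 ± 0.147) were the lowest, and apart from TGFBI and TGFBR1 no neighbours in this order overlapped. The SMAD2 level rests on a canonical transcript of 34626 bases, of which 1401 are coding, and would be higher on a shorter transcript. The order of the other genes rests on canonical lengths too and can change with the length used. TGFBI has 2049 coding bases of 2712 and TGFBR1 1509 of 6492, whereas TGFB1 has 1170 of 2780 and TGFBR2 1701 of 4530.

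On the same canonical lengths the order was different in MDA-MB-468. In low glucose TGFB2 led at 23.9 ± 0.917, followed by TGFBR2 at 16.4 ± 0.661 and TGFBR1 at 14.9 ± 0.467. SKIL (10.9 ± 0.411) and TGFB1 (10.6 ± 0.757) overlapped, as did the 2 lowest, TGFBI (1.94 ± 0.163) and SMAD7 (1.85 ± 0.379). SMAD3 was at 6.96 ± 0.0493 and SMAD2 at 3.31 ± 0.119, between these pairs. In high glucose TGFBR2 (15.5 ± 0.433), TGFB1 (15.4 ± 1.22), TGFB2 (13.5 ± 0.855) and TGFBR1 (12.6 ± 0.630) formed a run in which each gene overlapped the next. In high-glucose MDA-MB-231 no neighbours overlapped, and TGFBR1 (23.6 ± 0.173) stood above TGFBI (21.8 ± 1.01).

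**Figure D1:**
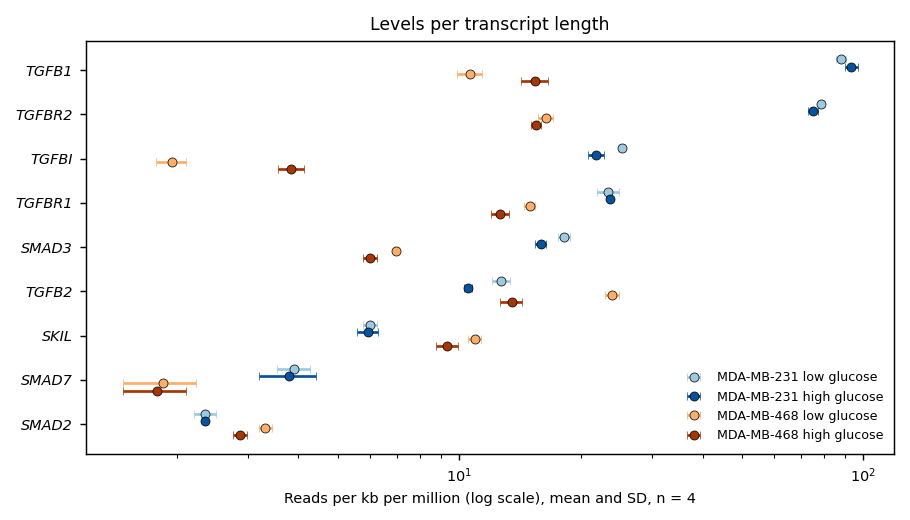
Levels of the 9 genes in RPKM (the axis label spells the unit out) on a log axis, with points for the mean and bars for the SD of 4 replicates in each group. On canonical transcript lengths TGFB1 and TGFBR2 stand highest in MDA-MB-231 (88.0 and 78.4 in low glucose), whereas TGFB2 is the highest of the 9 in low-glucose MDA-MB-468 (23.9).

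In low glucose all 9 genes differed between the lines, where 85.4% of the 17115 genes tested did so (limma, adjusted p under 0.05). The largest differences were falls from MDA-MB-231 to MDA-MB-468, of −3.83 for TGFBI on the log2 scale (SE 0.0633, adjusted p = 5.5e-19), −3.19 for TGFB1 (SE 0.0573, adjusted p = 1.7e-18) and −2.40 for TGFBR2 (SE 0.0306, adjusted p = 1.7e-20). The differences of SMAD3 (−1.53, SE 0.0313), SMAD7 (−1.23, SE 0.157) and TGFBR1 (−0.78, SE 0.0394) had the same direction. TGFB2 was higher in MDA-MB-468 by 0.77 (SE 0.0441), SKIL by 0.72 (SE 0.0464) and SMAD2 by 0.35 (SE 0.0385). The median of the 9 differences was −1.23, against 0.08 for all genes tested.

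SMAD4, the partner that SMAD2 and SMAD3 share, was at or near 0 in MDA-MB-468. In MDA-MB-231 it had 1190.4, 1179, 1180.1 and 1264 normalized reads in low glucose and 1201, 1158, 1262 and 1163 in high glucose, and the groups overlapped. The MDA-MB-468 libraries held 0 to 3 reads of it in low glucose and 2 to 6 in high glucose, below the filter of 0.5 CPM in 2 samples (highest value 0.412 CPM), so the gene was not tested in that line. MDA-MB-468 is known to carry a homozygous loss of SMAD4. A gene on the same strand shares 814 bases of the SMAD4 transcript, and its own row held between 2.75 and 5.0 reads on average in the MDA-MB-468 groups.

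In MDA-MB-231 high glucose lowered 3 of the 9 genes, a ligand (TGFB2), a transducer (SMAD3) and the target gene TGFBI, and raised none of them past the threshold. In these bulk libraries fewer cells expressing a gene and less RNA of it per cell cannot be told apart. The falls were of 14.1% to 18.6%. limma called 9.37% of the 14884 genes tested lower and 5.71% higher in this line. At an unadjusted p under 0.05 limma found 0 of the 9 higher and 4 lower, edgeR called 0 higher and 3 lower, and DESeq2 called 0 higher and 4 lower. Over all 14884 genes edgeR called 910 higher and 1334 lower, and DESeq2 813 and 1272. No share of all genes is given at the unadjusted threshold, so the counts at that threshold, here and for the lists below, have no background beside them. The glucose groups did not overlap for 3 of the 9 genes, against 18.7% of all genes tested. In MDA-MB-468 it raised TGFB1 and TGFBI, lowered TGFB2, TGFBR1, SMAD2, SMAD3 and SKIL, and left TGFBR2 and SMAD7 without a call. Over all 15757 genes tested in that line, 24.9% were called higher and 22.7% lower, and the groups did not overlap for 7 of the 9 genes, against 42.5% of all genes. The median log2 fold change of the 9 genes was −0.18 in MDA-MB-468 (all genes, 0.00011) and −0.07 in MDA-MB-231 (all genes, 0.0017). The median absolute log2 fold change was 0.20 in MDA-MB-468 (all genes, 0.21) and 0.07 in MDA-MB-231 (all genes, 0.10).

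**Figure D2:**
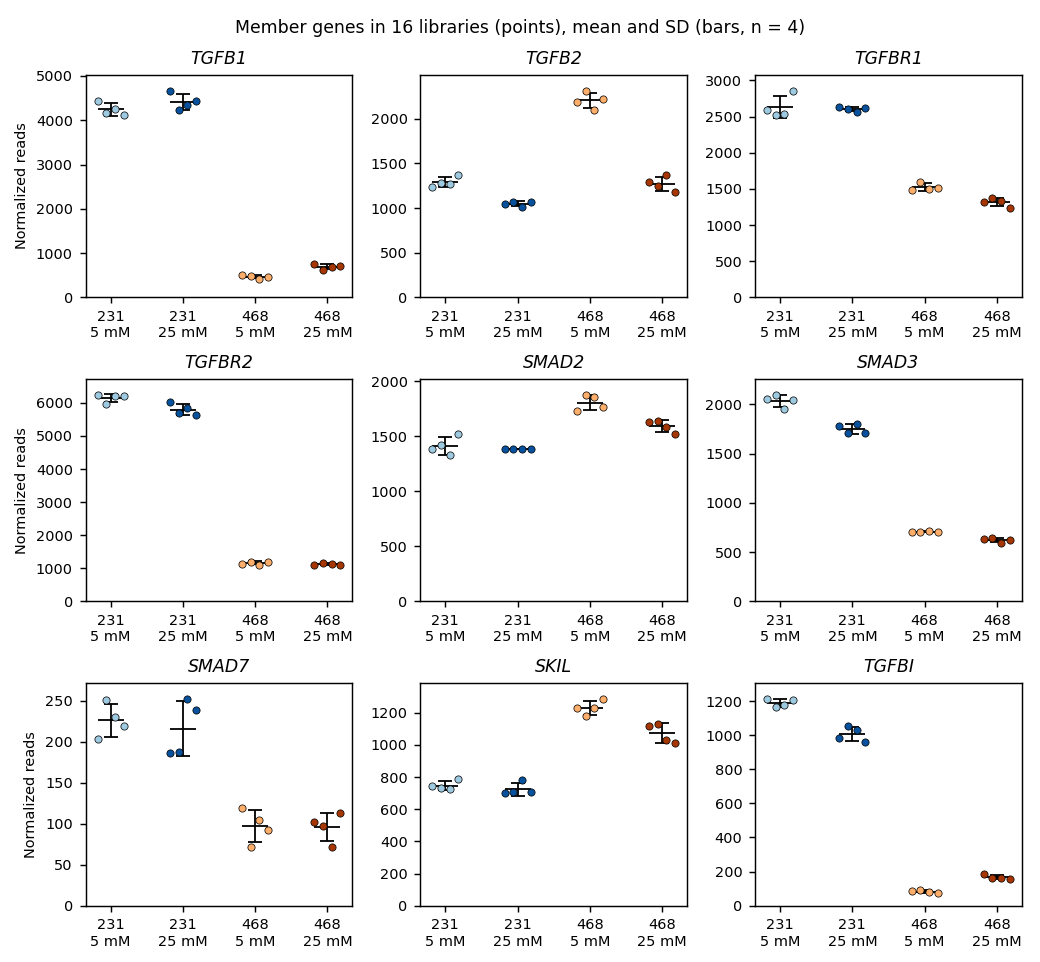
Normalized reads of each of the 9 genes in the 16 libraries, with bars for the mean and SD of 4 replicates for each line (last 3 digits of its name) and glucose level (5 or 25 mM), and each panel has its own axis from 0. TGFB2 and TGFBI separate the glucose groups in both lines, and TGFB1 does so in MDA-MB-468, where it lies between 424 and 496 in low and between 614 and 751 in high glucose.

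The ligand genes moved in opposite directions in MDA-MB-468. TGFB1 (ENSG00000105329, chr19:41807492-41859827, GRCh37) had 496, 489, 424 and 450.0 normalized reads in low glucose and 751, 614, 683 and 704 in high glucose. The 4 high-glucose libraries were all above the 4 low-glucose ones, and the gene rose 1.48-fold (log2 fold change 0.56, SE 0.0657, adjusted p = 2.6e-06, limma). In MDA-MB-231 it had 4430.1, 4161, 4259 and 4122 in low glucose and 4659.9, 4230.5, 4349 and 4433 in high glucose. These groups overlapped, with a log2 fold change of 0.06 (95% interval −0.02 to 0.13, adjusted p = 0.31). After quantile normalization it passed the threshold in MDA-MB-231 too, at 0.11 (adjusted p = 0.038). The response was larger in MDA-MB-468 by 0.51 (SE 0.0810, adjusted p = 0.00014, limma interaction contrast). Exons of HNRNPUL1, on the opposite strand, overlap some TGFB1 transcripts but 0 bases of the canonical one, and HNRNPUL1 fell in both lines (log2 fold change −0.10 and −0.12).

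TGFB2 (ENSG00000092969, chr1:218518678-218617961) fell in both lines and more in MDA-MB-468. Its MDA-MB-468 libraries had 2187, 2311, 2103 and 2224 normalized reads in low glucose and 1294, 1243, 1367 and 1175 in high glucose. The lowest low-glucose library was thus well above the highest high-glucose one, and the fall was to 0.575 of the low-glucose level (log2 fold change −0.80, SE 0.0452, adjusted p = 7.9e-10, limma). In MDA-MB-231 it had 1240.4, 1278, 1274 and 1374 in low glucose and 1049.9, 1073, 1014 and 1065 in high glucose. These groups did not overlap either, and the log2 fold change was −0.30 (SE 0.0417, adjusted p = 8.4e-05). The difference between the lines was −0.50 (SE 0.0624, adjusted p = 1.1e-05). The long noncoding genes TGFB2-AS1, on the opposite strand, and TGFB2-OT1, on the same strand, overlap 701 and 1371 bases of the TGFB2 transcript and were not analysed here as separate genes, so reads from them could not be separated from those of TGFB2.

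As a description with no test, set up after the values were seen, the ligands were also expressed as a ratio per canonical transcript length. TGFB1 exceeded TGFB2 in MDA-MB-231 by 6.95 ± 0.498 (SD, n = 4) in low and 8.88 ± 0.442 in high glucose. In low-glucose MDA-MB-468 the ratio was 0.444 ± 0.0248, with TGFB1 making up 30.7% of the sum of both. In high glucose it was 1.15 ± 0.114 and the share 53.3%, with a lowest ratio of 1.04. Which ligand is the higher in high-glucose MDA-MB-468 depends on the length used. Per coding length (1170 bases for TGFB1 and 1242 for TGFB2), an alternative chosen after seeing the data, the ratio was 0.223 ± 0.0125 in low and 0.577 ± 0.0576 in high glucose, so that TGFB1 stayed below TGFB2 in all 4 libraries (highest ratio 0.636). In MDA-MB-231 the ratio per coding length was 3.50 ± 0.250 and 4.47 ± 0.222.

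**Figure D3:**
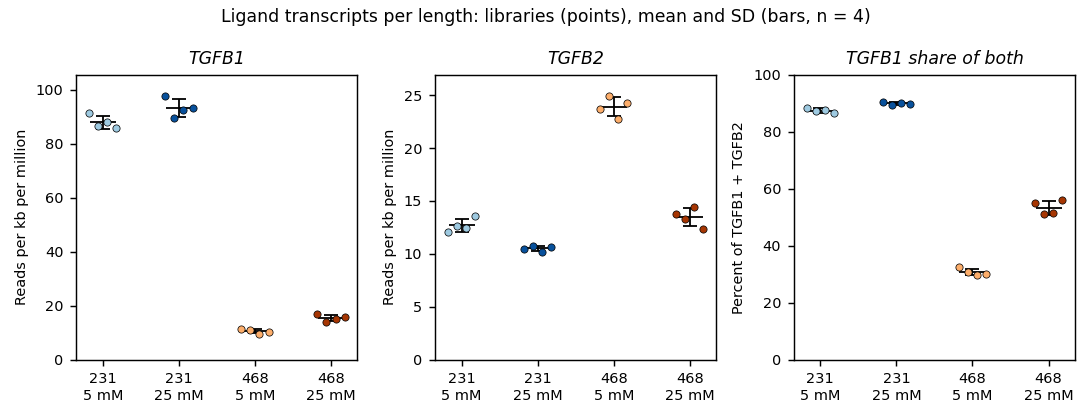
TGFB1 and TGFB2 in RPKM (the axis label spells the unit out), and TGFB1 as a percentage of their sum, for the 16 libraries, with bars for the mean and SD of 4 replicates. On canonical transcript lengths the share of TGFB1 averages 30.7% in low-glucose and 53.3% in high-glucose MDA-MB-468, and 87.4% and 89.9% in MDA-MB-231.

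Of the receptors, the type I receptor gene changed in MDA-MB-468. TGFBR1 (ENSG00000106799, chr9:101866320-101916474) had 1491, 1599, 1494 and 1517 normalized reads in low glucose and 1317, 1379.7, 1329 and 1242 in high glucose in MDA-MB-468. The groups did not overlap, and the gene fell by 0.21 on the log2 scale (SE 0.0404, adjusted p = 0.00038, limma). In MDA-MB-231 it lay between 2526 and 2854 in low glucose and between 2562 and 2639.9 in high glucose. There the log2 fold change was −0.01 (95% interval −0.09 to 0.07), and the lines differed by −0.20 (SE 0.0556, adjusted p = 0.011).

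TGFBR2 (ENSG00000163513, chr3:30648093-30735634), the type II receptor that binds the ligand, passed the threshold in neither line. It lay between 5979 and 6231 normalized reads in low glucose and between 5635 and 6019 in high glucose in MDA-MB-231, with an overlap of 1 library in each group. Its log2 fold change there was −0.09 (95% interval −0.15 to −0.02, adjusted p = 0.059, limma), and DESeq2 called it at an adjusted p of 0.039. In MDA-MB-468 it lay between 1112 and 1204 in low and between 1097 and 1150.3 in high glucose, with a log2 fold change of −0.05 (95% interval −0.13 to 0.04). The difference between the lines was 0.04 (95% interval −0.05 to 0.13).

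SMAD3 (ENSG00000166949, chr15:67356101-67487511) fell in both lines. In MDA-MB-231 it had 2057, 2094, 1955 and 2046 normalized reads in low glucose and 1782, 1708, 1800.0 and 1708 in high glucose. In MDA-MB-468 it had 707, 704, 714 and 702 in low glucose and 636, 640.1, 595 and 628 in high glucose. The glucose groups were separate in each line, with log2 fold changes of −0.22 (SE 0.0360, adjusted p = 0.00038, limma) and −0.18 (SE 0.0438, adjusted p = 0.0030). The lines differed by 0.04 (95% interval −0.05 to 0.13, adjusted p = 0.53), so no difference of the responses was detected.

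SMAD2 (ENSG00000175387, chr18:45335328-45457517) fell in MDA-MB-468, where it had 1729, 1872, 1852 and 1762 normalized reads in low glucose and 1630.3, 1637, 1581 and 1524 in high glucose. The groups did not overlap, and the log2 fold change was −0.18 (SE 0.0382, adjusted p = 0.0010, limma). In MDA-MB-231 the 4 high-glucose libraries, between 1380.0 and 1389, lay within the low-glucose range of 1325 to 1519.6, with a log2 fold change of −0.03 (95% interval −0.12 to 0.06). The difference between the lines was −0.15 (SE 0.0545, adjusted p = 0.043), and it lost the call when any of 11 single libraries was left out (adjusted p from 0.061 to 0.090). These were all 4 high-glucose replicates and low-glucose replicates 1, 2 and 3 of MDA-MB-231, and low-glucose replicates 2 and 3 and high-glucose replicates 3 and 4 of MDA-MB-468.

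SKIL (ENSG00000136603, chr3:170075130-170114623) fell in MDA-MB-468. Its libraries had 1227, 1182, 1227 and 1283 normalized reads in low glucose and 1118, 1133, 1030.1 and 1009.8 in high glucose. All high-glucose libraries were below all low-glucose ones, with a log2 fold change of −0.20 (SE 0.0452, adjusted p = 0.0017, limma). In MDA-MB-231 it lay between 729 and 789 in low glucose and between 702 and 782 in high glucose, and the log2 fold change was −0.05 (95% interval −0.15 to 0.06). The lines differed by −0.15 (SE 0.0657, adjusted p = 0.094), which passed the threshold without MDA-MB-231 low-glucose replicate 4 (adjusted p = 0.049).

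SMAD7 (ENSG00000101665, chr18:46446223-46477335) varied most between replicates. In MDA-MB-468 it had 119, 71.9, 105 and 92.5 normalized reads in low glucose and 102, 97.2, 72.1 and 113 in high glucose, from 63 to 150 reads per library. The groups overlapped, with a log2 fold change of −0.01 (95% interval −0.35 to 0.33), an interval wide enough to hold changes of the size seen in SMAD3 or SKIL. In MDA-MB-231 it had 204, 251, 230.2 and 219 in low glucose and 187, 187, 252 and 239 in high glucose, and the log2 fold change was −0.07 (95% interval −0.29 to 0.14). No change past the spread between replicates was detected in either line.

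TGFBI (ENSG00000120708, chr5:135364677-135399507), which encodes a secreted matrix protein, moved in opposite directions in the lines. MDA-MB-468 libraries had 86.2, 89.6, 83.1 and 72.8 normalized reads in low glucose and 184, 165, 165 and 155 in high glucose. The gene doubled, with no overlap (2.01-fold, log2 fold change 1.004, SE 0.102, adjusted p = 5.5e-07, limma), from a low level of 81 to 109 reads per library. MDA-MB-231 libraries had 1209.7, 1164, 1177 and 1205 in low glucose and 984, 1055, 1031 and 961 in high glucose. There it fell, again with no overlap (log2 fold change −0.24, SE 0.0414, adjusted p = 0.00066). The difference between the lines was 1.24 (SE 0.0895, adjusted p = 3.2e-08), and even in high glucose the mean level in MDA-MB-468 was 167 ± 12.0, against 1008 ± 43.1 in MDA-MB-231.

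In all, the response to glucose differed between the lines for 5 of the 9 genes, TGFB1, TGFB2, TGFBR1, SMAD2 and TGFBI, where 30.9% of the 17115 genes tested did so. For TGFB1, TGFB2, TGFBR1 and SMAD2 the response was the larger in MDA-MB-468, and for TGFBI its sign differed. The 5 genes that fell in MDA-MB-468 had canonical transcripts of 5868 bases (TGFB2), 6464 (SMAD3), 6492 (TGFBR1), 7155 (SKIL) and 34626 (SMAD2), and the genes that rose had shorter ones, of 2780 (TGFB1) and 2712 bases (TGFBI). As an alternative, the log2 values of each library were corrected for transcript length by loess and limma was run again. In MDA-MB-468 TGFB1 was then at 0.56, TGFBI at 0.997 and TGFB2 at −0.74. TGFBR1 was at −0.15, SKIL at −0.12 and SMAD3 at −0.11, and all of these genes were still called. SMAD2, whose length lies far from the others, went to 0.05 (adjusted p = 0.37) and its difference between the lines to −0.02 (adjusted p = 0.85). With coding length in place of transcript length, an alternative chosen after seeing the data, SMAD2 stayed at −0.18 in MDA-MB-468 and was called.

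**Figure D4:**
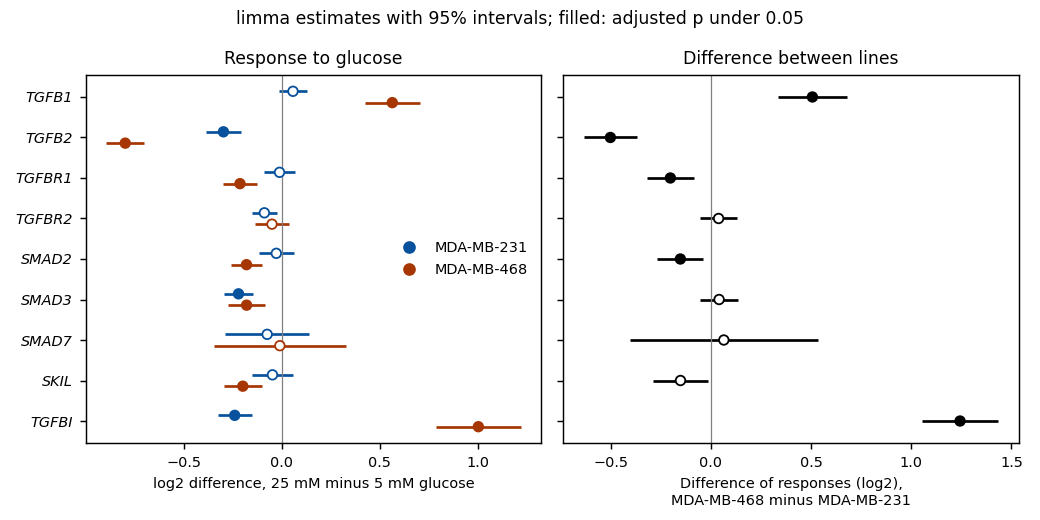
log2 fold changes of the 9 genes, high minus low glucose, in each line (left) and the difference of these responses between the lines (right), as limma estimates with 95% intervals; filled points have an adjusted p under 0.05. TGFBI (1.24), TGFB1 (0.51) and TGFB2 (−0.50) lie farthest from 0 in the right panel, and the widest intervals are those of SMAD7.

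A further 4 lists of pathway genes were counted beside the 9. The lists were chosen with earlier results of these data known, so their counts beside the shares of all genes are a description and not a test. In MDA-MB-231, 6 of the 16 tested genes of ligand supply (other ligands, latency proteins, activators and antagonists) fell and 0 rose, where 9.37% of all genes tested were called lower and 5.71% higher. At an unadjusted p under 0.05, for which no share of all genes is given, limma found 0 of them higher and 10 lower. The tools edgeR and DESeq2 each called 0 higher and 6 lower, where over all 14884 genes they called 1334 and 1272 lower. THBS1, whose product thrombospondin-1 releases active TGF-beta, went from 21621 ± 546 to 14977 ± 477 normalized reads (log2 fold change −0.53, SE 0.0293, adjusted p = 2.9e-09). ITGB8, an integrin subunit that activates latent TGF-beta, fell by 0.43 (SE 0.116), and FST (follistatin), an activin antagonist, fell by 0.40 (SE 0.0325). The median of this list was −0.15, against 0.0017 for all genes.

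The family receptors in MDA-MB-231 gave 0 calls of 10 by limma, edgeR and DESeq2, with 1 higher at an unadjusted p under 0.05 and a median of 0.15. Of the 19 tested SMADs and regulators 1 rose and 3 fell there (all genes, 5.71% higher and 9.37% lower, median 0.0017), and without high-glucose replicate 1 or replicate 3 the count of 4 went to 2. TGIF1, a corepressor of SMADs, rose by 0.17 (SE 0.0468, adjusted p = 0.023, limma), and the ubiquitin ligase SMURF2 (−0.20, SE 0.0315), the feedback inhibitor PMEPA1 (−0.20, SE 0.0342) and the ubiquitin ligase NEDD4L (−0.11, SE 0.0353) fell. NEDD4L was named after its values were seen.

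Of the 21 target genes tested in MDA-MB-231, 10 fell and 1 rose, against 9.37% of all genes called lower and 5.71% higher. The median was −0.21, against 0.0017 for all genes. IL11, a cytokine, went from 453 ± 16.9 to 275 ± 21.0 normalized reads (log2 fold change −0.72, SE 0.0651, adjusted p = 6.6e-07, limma). CCN2 (connective tissue growth factor) went from 9069 ± 146 to 6244 ± 110 (−0.54, SE 0.0271, adjusted p = 1.1e-09), and COL4A1, a basement membrane collagen, fell by 0.48 (SE 0.0444). JUNB, named after its values were seen, was the gene that rose, by 0.14 (SE 0.0418, adjusted p = 0.032).

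In MDA-MB-468 the lists moved both ways, and their counts are to be read against the 24.9% of all genes called higher and the 22.7% called lower. Of 18 ligand supply genes 6 rose and 6 fell, with a median of 0.03 (all genes, 0.00011). BMP4 went from 206 ± 8.10 to 77.2 ± 13.8 normalized reads (log2 fold change −1.42, SE 0.118, adjusted p = 6.0e-08, limma), and BMP2, another bone morphogenetic protein, from 277 ± 23.2 to 161 ± 17.1 (−0.78, SE 0.0882). FURIN, a protease that cleaves the TGF-beta precursor, rose from 559 ± 25.0 to 803 ± 40.2 (0.52, SE 0.0506, adjusted p = 3.4e-07). Of the 9 receptors tested 1 rose and 3 fell (all genes, 24.9% and 22.7%), with a median of −0.04. ACVR1B, a type I activin receptor, rose by 0.25 (SE 0.0683), whereas the activin receptor ACVR2B (−0.61, SE 0.180), the pseudoreceptor BAMBI (−0.33, SE 0.0697) and ACVR1 (−0.24, SE 0.0595, named after its values were seen) fell.

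Of the 18 SMADs and regulators tested in MDA-MB-468, 2 rose and 8 fell (all genes, 24.9% and 22.7%), with a median of −0.08. SMAD6, an inhibitory SMAD, went from 143 ± 5.08 to 93.8 ± 7.34 normalized reads (log2 fold change −0.61, SE 0.0970, adjusted p = 7.4e-05, limma), NEDD4L fell by 0.53 (SE 0.0426) and the corepressor TGIF2 by 0.41 (SE 0.0490). The 2 that rose, named after their values were seen, were the corepressor SKI (0.19, SE 0.0544) and the SMAD anchor ZFYVE9 (0.21, SE 0.0536). Of the 20 target genes 6 rose and 5 fell, with a median of −0.0092, and these shares are near those of all genes. CDKN1A (p21, a cell cycle inhibitor) went from 547 ± 45.1 to 971 ± 71.8 (0.83, SE 0.0626, adjusted p = 2.0e-08), NEDD9, a focal adhesion adaptor, from 431 ± 10.8 to 223 ± 13.4 (−0.95, SE 0.0631, adjusted p = 4.7e-09), and CCN2 from 1087 ± 20.2 to 698 ± 33.6 (−0.64, SE 0.0439). The other falls, named after their values were seen, were TPM1 (−0.59), ID3 (−0.37) and FN1 (−0.22). Named in the same way, SNAI1, RHOB, ID2, COL1A1 and CDKN2B had all high-glucose libraries above all low-glucose ones. Their mean normalized reads went, in this order, from 22.3 to 36.0, 336 to 457, 211 to 285, 254 to 308 and 905 to 1053.

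CDKN1A and TGIF1 were called in opposite directions in the lines, as was the latency protein LTBP3, and all 3 were named for this after their values were seen. CDKN1A fell by 0.19 in MDA-MB-231, and the difference between the lines was 1.02 (SE 0.0783, adjusted p = 6.3e-08, limma). LTBP3 fell by 0.40 in MDA-MB-231 and rose by 0.28 in MDA-MB-468 (difference 0.68, SE 0.0704, adjusted p = 1.7e-06). TGIF1 fell by 0.35 in MDA-MB-468 (difference −0.51, SE 0.0569, adjusted p = 3.3e-06). CCN2 and THBS1 fell in both lines, with differences of −0.10 (95% interval −0.19 to −0.01, adjusted p = 0.084) and 0.02 (95% interval −0.08 to 0.11).

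**Figure D5:**
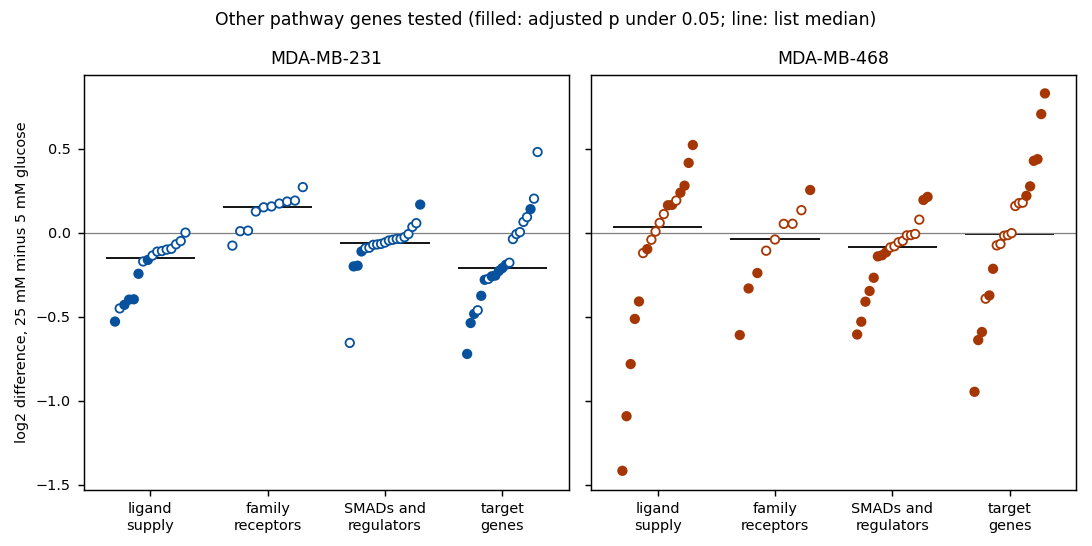
log2 fold changes, high minus low glucose, of the tested genes of 4 pathway lists in MDA-MB-231 (left) and MDA-MB-468 (right), 1 point per gene; filled points have an adjusted p under 0.05 and the horizontal lines are list medians. The target genes lie mostly below 0 in MDA-MB-231 (10 fell, 1 rose) and on both sides in MDA-MB-468 (6 rose, 5 fell).

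Genes with the most similar profile were looked up for the members that changed most in each line, TGFB2 in MDA-MB-231 and TGFBI in MDA-MB-468, by the Euclidean distance between centred log2 means of the 4 groups, among 13573 genes. The nearest to TGFB2 were ZNF724 (distance 0.10), with log2 fold changes of −0.67 in MDA-MB-468 and −0.35 in MDA-MB-231, and RAD9B (distance 0.13), with −0.65 and −0.20. The nearest to TGFBI were NAAA (distance 0.14), with 0.98 in MDA-MB-468 and −0.05 in MDA-MB-231, and CKAP4 (distance 0.21), with 0.93 and 0.0027. Likeness over 4 group means is a description.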

How the data were processed

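RNA-Seq was performed on 16 samples, 4 per group, and the labels gave the group and replicate number of each. Per the labels, RNA was isolated with an RNeasy kit and sequenced by Illumina protocols, and the submitters' processing notes name hg38 and edgeR. The study's methods give Trimmomatic, TopHat, hg19 and DESeq2 for its tumors and xenografts. The trimmer, aligner and counting program of these cell lines, and the use of strand, are not given in the sources used here. The deposited values are a signal per gene, reads scaled by the authors with a library size factor. All values (100%) were whole multiples of 1 step per library (tolerance 0.01 reads), so reads were recovered. Replicates differed by more than counting error (chi-square per gene from 2.02 to 5.20), so none was counted as a repeat. In low-glucose MDA-MB-231 the pairs with replicate 4 were at 4.96, 3.83 and 5.20, against 2.66, 2.13 and 2.52 for the other pairs. Without this library 2389 genes were called in that line by limma (2245 with it). In the other groups the highest pair was at 4.23, in high-glucose MDA-MB-468. Nothing in the labels says that replicates were separate cultures, so p-values measure the spread between these samples, which may be technical.

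Symbols (16633 of 18332 IDs), coordinates and canonical transcript lengths (17418 IDs) came from GENCODE lifted to GRCh37, and promoter windows from RefSeq (GRCh38.p14), where all 9 genes matched. Genes that reached 0.5 CPM in 2 or more fitted samples were tested across all genes with limma 3.58.1 (R 4.3.3; lmFit, eBayes with trend) on log2(value + 1), two-sided, with Benjamini-Hochberg adjustment over all genes tested and a threshold of 0.05. Each line was fitted alone. The difference of responses and the difference between lines came from a model of 4 group means over 16 samples. Because of the pseudocount, fold changes of low genes are understated. Counting intervals and the floor of 3 reads (0.123 to 0.213 CPM) cover counting error only. Alternatives were pseudocounts of 0.1 and 10, other filters and scalings, no moderation, edgeR 4.0.16 and DESeq2 1.42.0 on recovered reads, length corrections, the replicate number as a block, and leaving out each replicate. The limma fits with the main settings, not the alternatives, were tested on simulated data.

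The text names all 9 genes, SMAD4, the 3 largest called changes of each list and line with a mean of 5 CPM or more in the higher group, and the 2 nearest profiles to the most changed member of each line. The genes and lists were chosen with earlier results of these data known. Replicate numbers were not used to pair the samples in the main fits.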

Additional observations from a re-analysis of the deposited data

Results flagged for a closer look

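The response to glucose differed between the lines, by the interaction contrast of limma, for 5 of the 9 genes. The difference, MDA-MB-468 minus MDA-MB-231, was 1.24 for TGFBI, 0.51 for TGFB1, −0.50 for TGFB2, −0.20 for TGFBR1 and −0.15 for SMAD2, and that of SMAD2 was no longer called under 16 of 31 alternatives. For TGFBI all 4 high-glucose libraries were above the low-glucose ones in MDA-MB-468 and below them in MDA-MB-231.

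A single library stood apart from its group in 2 of 36 groups of 4 examined (9 genes in 4 groups), where chance gives about 1 in 20. TGFBR2 was at 5979 normalized reads in MDA-MB-231 low-glucose replicate 2, and the other 3 replicates lay between 6213 and 6231. SKIL was at 782 in MDA-MB-231 high-glucose replicate 3, and the other 3 lay between 702 and 706.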

How the results depend on the processing

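The number of the 9 genes called kept within 1.5 times of its value under every alternative run, from 3 to 4 in MDA-MB-231, 5 to 7 in MDA-MB-468, 4 to 6 for the difference of responses, and 9 for the difference between lines. Quantile normalization turned the MDA-MB-231 split of 850 higher and 1395 lower genes to 1027 and 1114, that of MDA-MB-468 from 3925 and 3570 to 3646 and 3801, and that of the difference of responses from 2909 and 2379 to 2680 and 2779. It also reversed values that were not called, TGFBR1 in MDA-MB-231 (0.014) and the differences of TGFBR2 (−0.0047) and SMAD3 (−0.023). Without moderation 1297 genes were called in MDA-MB-231, with 3 ligand supply genes and 2 SMADs and regulators, the latter also without high-glucose replicate 1 or 3, and SMAD2's difference was lost (adjusted p = 0.055). The correction for transcript length, with or without the replicate block, reversed TGFBR1 (0.029) and SMAD2 (0.091) in MDA-MB-231 and SMAD2 in MDA-MB-468 (0.050). Leaving out 1 replicate reversed values that were not called: TGFBR1 (−0.029 to 0.029) and SMAD2 (−0.057 to 0.0085) in MDA-MB-231, both without low-glucose replicate 4, and SMAD7 in MDA-MB-468 (−0.14 to 0.12, with 0.095, 0.037 and 0.12 without low-glucose replicates 1 and 3 and high-glucose replicate 3) and in its difference (−0.070 to 0.20, with −0.0004, −0.070 and −0.018 without MDA-MB-231 high-glucose replicate 1, MDA-MB-468 low-glucose replicate 2 and high-glucose replicate 4). Without MDA-MB-231 high-glucose replicate 1 TGFBR2 was called (−0.11, adjusted p = 0.045), and without low-glucose replicate 4 a receptor was called (1, against 0). The cause was not tested.

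The correlation across genes of the deviations from group means, for samples of the same number, lay between −0.040 and −0.0051 in MDA-MB-231 and between 0.017 and 0.032 in MDA-MB-468, and 0 of 4 and 3 of 4 pairs correlated best with their own number, a hint from the data only. With the replicate number as a block 3, 7, 4 and 9 of the 9 genes were called, the lost call being SMAD2's difference (−0.15, adjusted p = 0.059), and over all genes 1624 in MDA-MB-231 (2245 without), 7383 in MDA-MB-468 (7495), 4774 for the difference of responses (5288) and 14531 between lines (14621). With block and transcript length correction together SMAD3 in MDA-MB-468 was at −0.11 (adjusted p = 0.066), and with block and coding length SMAD2's difference was −0.14 (adjusted p = 0.055).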
